A study of Mus musculus with 2 samples.

Results

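The nuclear genes that code for subunits of the mitochondrial respiratory chain and ATP synthase were examined in 46C mouse embryonic stem cells carrying a Gbx2 vector and in cells carrying the empty vector. Members were chosen by gene symbol, namely the Nduf series a, b, c, s and v with a number, Sdha to Sdhd, all Uqcr, Cox4 to Cox8 and Atp5 symbols, and Cyc1 and Cycs. This gave 83 of the 14500 gene symbols in the table: 37 of complex I, 4 of complex II, 9 of complex III, cytochrome c itself, 15 of complex IV and 17 of complex V. The rule reads symbols alone, although the set was proposed with earlier results of these data known.

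Oxidative phosphorylation passes electrons from NADH through complex I, or from succinate through complex II, to ubiquinone, then through complex III and the mobile carrier cytochrome c to complex IV, which reduces oxygen. Complexes I, III and IV pump protons, and complex V, the ATP synthase, uses the proton gradient to make ATP. Apart from complex II, each complex also holds subunits coded by mitochondrial DNA. None of the 13 such genes looked up had a row, so they were not analysed here. Mouse embryonic stem cells in serum with LIF use both glycolysis and respiration, and the balance shifts between pluripotent states.

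The library titled PB-Gbx2 stood for 46C cells, a line with a green fluorescent protein reporter in the Sox1 locus, transfected with the vector for the homeobox factor Gbx2, and the library titled PB for the same line with the empty vector. Both were grown on gelatin in serum medium with LIF. There was 1 library per group, so no value has a replicate error and no test between the vectors exists. The source names say the opposite of the titles, and groups follow the titles. Gbx2 stood at a level of 1178 in the library titled PB-Gbx2 and 345 in the library titled PB, which goes with the titles. If the source names were right, every direction given here would turn round. Levels are the authors' normalized whole numbers. Their sorted values are the same in both libraries, so a change shared by the whole transcriptome cannot be seen, depth is unknown, and fewer cells of a type cannot be told apart from less RNA per cell.

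All 10 listed markers of pluripotent stem cells were present at high levels in both libraries, between 3430 and 31035 in PB-Gbx2 and between 3843 and 31035 in PB. Nanog, Klf4 and Zfp42 were at least 2-fold higher in PB-Gbx2. The list did not share this size: 7 of the 10 had a ratio above 1, 2 below and 1 of exactly 1. The 2 below were Tfcp2l1 (11892 in PB-Gbx2 and 12900 in PB) and Utf1 (3430 in PB-Gbx2 and 3843 in PB). Of 8 fibroblast markers, Col1a1, Col1a2, Thy1 and Pdgfrb had a row, with a summed level of 1032 in PB-Gbx2 and 1633 in PB. Col1a2 alone of these was higher in PB-Gbx2, at very low levels of 18 in PB-Gbx2 and 9 in PB. Of 7 muscle markers, 4 had a row and summed to 718 in PB-Gbx2 and 924 in PB. Of 4 erythroid markers Gata1 alone had a row, at 80 in PB-Gbx2 and 124 in PB. The part of such cells in the results below was not tested.

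A gene was counted as higher or lower when its ratio of PB-Gbx2 over PB, on log2(level + 1), reached 1.2-fold. By this count, 21 of the 83 members were higher in PB-Gbx2 (25.3%), where 25.5% of all genes were, so the share of higher members was that of the whole table. Lower members were 2 in number (2.41%), where 25.9% of all genes were lower, and 60 members lay in between. In sign, 65 members had a ratio above 1 (78.3%, against 49.2% of all genes), 16 below and 2 of exactly 1. The median log2 ratio was 0.15, against 0.00 for all genes. At 2-fold, Cox7a1 and Cox8c were higher and Ndufa4l2 was lower, in a table where 5.14% of genes were higher and 5.26% lower.

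Most members are abundant, with a median of their mean levels of 1722 against 386 for all genes, so the closer background is that of the 3942 genes with a mean level of at least 1000. Among these, 16.3% were higher by 1.2-fold and 15.8% lower, and 48% had a ratio above 1. The 61 members at this level had 12 higher (19.7%), near that background, none lower, and 48 with a ratio above 1 (78.7%). Their log2 ratios had an SD of 0.16 around a median of 0.14, while those of all genes at this level had an SD of 0.33 around 0.00. The members thus spread less around their median than all genes of this level did around theirs.

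The median log2 ratio was 0.19 for complex I, 0.02 for complex II, 0.16 for complex III, 0.33 for complex IV and 0.00 for complex V, so the complexes differed in where their genes lay. At a mean level of at least 1000, a ratio above 1 was seen for 20 of 21 genes of complex I, 2 of 4 of complex II, 8 of 9 of complex III, 11 of 11 of complex IV and 7 of 15 of complex V. The 1.2-fold count at that level was 4 higher in complex I (19.0%), 0 in complex II, 1 in complex III, 6 in complex IV (54.5%) and 1 in complex V. The share in complex IV lay above the 16.3% background and that in complex I near it, while complexes II and V lay around 0 in sign as well as in size. Subunits of a complex are not replicates of each other, and the differences between complexes were not tested.

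**Figure D1:**
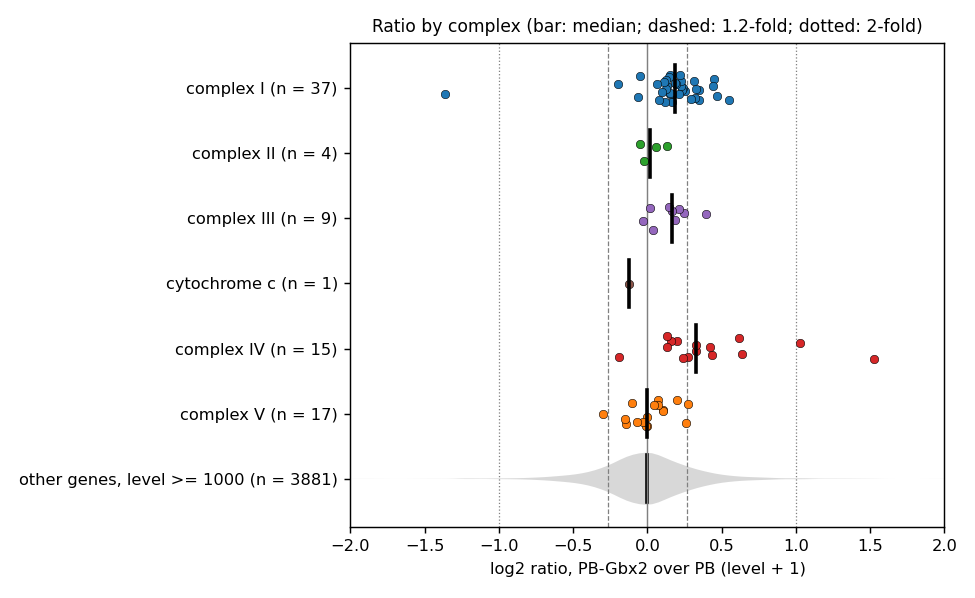
Log2 ratio of PB-Gbx2 over PB on log2(level + 1), 1 point per gene and 1 row per complex, with the 3881 other genes at a mean level of at least 1000 as a grey density. Thick bars are medians, dashed lines mark 1.2-fold and dotted lines 2-fold; complex IV has its median at 0.33 and complex V at 0.00, and Ndufa4l2 is the single point far to the left.

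The catalytic core of complex I differed little, with a median log2 ratio of 0.12 over its 7 nuclear subunits. In the part that oxidizes NADH, Ndufv1, which binds FMN and NADH, stood at 3537 in PB-Gbx2 and 3244 in PB. Its neighbour Ndufv2 and the iron-sulphur protein Ndufs1 had ratios of 1.09-fold and 1.12-fold. In the part that passes electrons on to ubiquinone, Ndufs3 was at 930 in PB-Gbx2 and 743 in PB, 1.25-fold higher and the single core gene past 1.2-fold. Ndufs7, which carries the last iron-sulphur cluster before ubiquinone, went the other way, with 898 in PB-Gbx2 and 1029 in PB (1.15-fold lower).

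The accessory subunits surround this core and are needed for assembly and stability. Of 28 such genes, 26 had a ratio above 1, and the median log2 ratio was 0.22. By 1.2-fold 8 were higher (28.6%, near the 25.5% of all genes) and none lower (against 25.9%). In the matrix arm all 9 lay above 0. Ndufa7 stood at 2748 in PB-Gbx2 and 2158 in PB, 1.27-fold higher. Ndufa2 stood at 502 in PB-Gbx2 and 394 in PB, also 1.27-fold higher. The other 7, Ndufv3, Ndufa5, Ndufs6, Ndufa6, Ndufs4, Ndufa9 and Ndufa12, ranged from 1.19-fold for Ndufv3 (1624 in PB-Gbx2 and 1364 in PB) down to 1.06-fold for Ndufa12 (1056 in PB-Gbx2 and 999 in PB). Ndufs4 and Ndufs6, in which defects are known to cause complex I deficiency in human disease, were 1.11-fold and 1.17-fold higher.

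In the membrane arm, which houses the proton pumps, 17 of 19 accessory genes lay above 0. In this arm 6 were higher by 1.2-fold (31.6%, against 25.5% of all genes) and none lower. The highest ratio in complex I was that of Ndufs5, at 194 in PB-Gbx2 and 132 in PB (1.47-fold). Its level is low for this complex, and its percentile among the ratios of similarly abundant genes was 83.3. Ndufb4 stood at 1070 in PB-Gbx2 and 774 in PB (1.38-fold, percentile 92.7). Ndufa3 stood at 1038 in PB-Gbx2 and 759 in PB (1.37-fold, percentile 92.0), and Ndufb6 at 393 in PB-Gbx2 and 289 in PB (1.36-fold, percentile 85.8). These were the highest ratios among the accessory subunits.

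Ndufa10, an accessory protein on the matrix side of the membrane arm, stood at 1917 in PB-Gbx2 and 1526 in PB. Ndufa13, also known as Grim19, stood at 1668 in PB-Gbx2 and 1340 in PB, and both were thus past 1.2-fold. Ndufa8 (763 in PB-Gbx2 and 796 in PB) and Ndufb10 (1759 in PB-Gbx2 and 1820 in PB) were the 2 genes of the arm below 0. The remaining 11, Ndufa1, Ndufa11, Ndufb2, Ndufb3, Ndufb5, Ndufb7, Ndufb8, Ndufb9, Ndufb11, Ndufc1 and Ndufc2, lay between 1.08-fold for Ndufb2 and 1.18-fold for Ndufb11. Ndufb2 had a low level, 80 in PB-Gbx2 and 74 in PB, and its exons overlap those of Braf and Gm42420. Of these 11 genes Ndufb8, whose protein is often used as a gauge of assembled complex I, stood at 1217 in PB-Gbx2 and 1042 in PB.

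**Figure D2:**
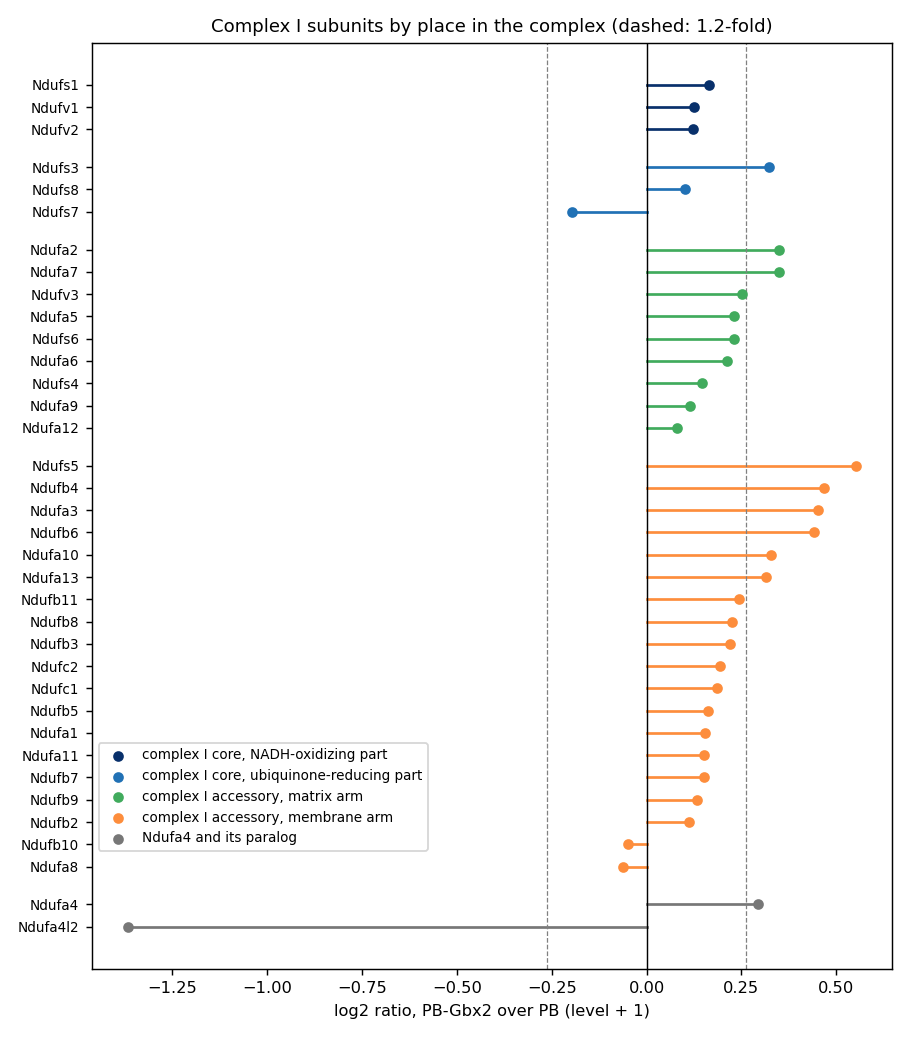
Log2 ratio of PB-Gbx2 over PB for genes of the Nduf series, 1 line per gene, grouped by their place in complex I and sorted within each group, with dashed lines at 1.2-fold. Accessory subunits of both arms lie to the right of 0 except Ndufb10 and Ndufa8, Ndufs7 alone of the core lies to the left, and Ndufa4l2 reaches -1.37.

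Ndufa4 and its paralog Ndufa4l2 moved apart. Ndufa4, named as a complex I subunit and later found in complex IV, stood at 2050 in PB-Gbx2 and 1672 in PB (1.23-fold higher, percentile 85.8 among similarly abundant genes). Ndufa4l2, a target of the hypoxia-inducible factor HIF-1 that is known to lower complex I activity, stood at 402 in PB-Gbx2 and 1038 in PB (2.58-fold lower, percentile 0.55). In the authors' deposited table Ndufa4l2 has a p of 0.000969 and an adjusted p of 0.167, the lowest adjusted value of the 83 members, and the other 82 have an adjusted p of 1. Per kilobase of transcript, Ndufa4l2 made up 11.4% of the sum of both genes in PB-Gbx2 and 28.8% in PB. This share is rough, since the level is a normalized score. Exons of Ndufa4l2 overlap those of Shmt2, the mitochondrial serine hydroxymethyltransferase, on the opposite strand. Shmt2 stood at 5154 in PB-Gbx2 and 7752 in PB, and without strand the reads of the shared stretch cannot be told apart. Its part in the value of Ndufa4l2 was not tested.

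Complex II, succinate dehydrogenase, is the one complex coded wholly in the nucleus and also belongs to the citric acid cycle. Its flavoprotein Sdha stood at 3602 in PB-Gbx2 and 3288 in PB, and the iron-sulphur protein Sdhb at 2534 in PB-Gbx2 and 2578 in PB. The membrane anchor Sdhc was at 1836 in PB-Gbx2 and 1904 in PB, and its partner Sdhd at 2146 in PB-Gbx2 and 2058 in PB. All log2 ratios lay between -0.05 and 0.13, with 2 genes on either side of 0.

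In complex III, Uqcrfs1, the Rieske iron-sulphur protein, stood at 1198 in PB-Gbx2 and 910 in PB (1.32-fold higher, percentile 89.1). It was the single gene of this complex past 1.2-fold. The other catalytic subunit in the list, cytochrome c1, gave nearly equal values, with Cyc1 at 4973 in PB-Gbx2 and 4922 in PB. Of the core proteins, Uqcrc1 was at 5042 in PB-Gbx2 and 4565 in PB, and Uqcrc2 at 2204 in PB-Gbx2 and 2255 in PB, on either side of a ratio of 1. All 5 small subunits, Uqcrq, Uqcrh, Uqcrb, Uqcr10 and Uqcr11, were slightly higher in PB-Gbx2, from 1.18-fold for Uqcrq (1826 in PB-Gbx2 and 1542 in PB) to 1.02-fold for Uqcr11 (2084 in PB-Gbx2 and 2034 in PB). Cycs, the somatic cytochrome c that carries electrons from complex III to complex IV, stood at 1632 in PB-Gbx2 and 1782 in PB, a log2 ratio of -0.13.

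Complex IV, cytochrome c oxidase, had the highest median ratio of the chain. Of its 15 genes, 14 lay above 0 and 9 passed 1.2-fold, all higher in PB-Gbx2 (60%, against 25.5% of all genes). The levels of the 15 genes summed to 39824 in PB-Gbx2 and 32260 in PB. All 10 genes of the general isoforms or single forms lay above 0, with a median log2 ratio of 0.30. Cox7a2, the general isoform of subunit VIIa, led them at 1824 in PB-Gbx2 and 1188 in PB (1.54-fold, percentile 97.1). Cox5a stood at 796 in PB-Gbx2 and 589 in PB (1.35-fold, percentile 90.3). Cox7b stood at 4659 in PB-Gbx2 and 3486 in PB (1.34-fold, percentile 92.3). These 3 nuclear subunits wrap the mitochondrially coded catalytic centre, like the rest of the group.

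Cox5b was at 2386 in PB-Gbx2 and 1898 in PB, and Cox8a at 3449 in PB-Gbx2 and 2745 in PB, both 1.26-fold higher. Cox6b1, which faces the space where cytochrome c docks, stood at 3532 in PB-Gbx2 and 2921 in PB (1.21-fold). Cox4i1, Cox6a1, Cox6c and Cox7c stayed under the threshold. Cox4i1, a large subunit that takes part in the regulation of the enzyme by ATP, was the highest of them in ratio at 7942 in PB-Gbx2 and 6736 in PB (1.18-fold), and Cox6c and Cox7c were the lowest, both at a log2 ratio of 0.13.

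Genes of complex IV isoforms known from particular tissues were listed as well, and they differed widely. Cox7a1, the heart and skeletal muscle isoform of subunit VIIa, stood at 644 in PB-Gbx2 and 316 in PB (2.04-fold higher, percentile 98.9). In the authors' deposited table its p is 0.0253 and its adjusted p is 1. Cox6b2, the testis isoform of subunit VIb, stood at 2750 in PB-Gbx2 and 1766 in PB (1.56-fold higher, percentile 97.2). Cox8c, also a testis isoform, was at 22 in PB-Gbx2 and 7 in PB, a level at which ratios scatter widely (percentile 88.0). Cox4i2, the lung isoform that responds to low oxygen, was at 82 in PB-Gbx2 and 94 in PB, the single complex IV gene below 0. Cox7a2l, which links complex III to complex IV in supercomplexes, stood at 2310 in PB-Gbx2 and 2067 in PB.

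Isoforms of 1 subunit were set against each other per kilobase of transcript. The level is a normalized score and the length that of the longest transcript, so these shares are rough and are no measure of molecules. Cox7a1 made up 32.4% of the summed Cox7a1 and Cox7a2 level in PB-Gbx2 and 26.5% in PB. Cox6b2 made up 45.1% of the summed Cox6b1 and Cox6b2 level in PB-Gbx2 and 39.0% in PB, so neither library held 1 form of subunit VIb alone. Cox4i2 was a minor form beside Cox4i1, with 1.07% in PB-Gbx2 and 1.44% in PB, and Cox8c was one beside Cox8a, with 0.760% in PB-Gbx2 and 0.305% in PB. Of the 4 muscle markers with a row, 3 were lower in PB-Gbx2 by at least 1.2-fold, where 25.9% of all genes were. These were Actc1 (34 in PB-Gbx2 and 48 in PB), Myh6 (300 in PB-Gbx2 and 369 in PB) and Tnni3 (236 in PB-Gbx2 and 407 in PB). Tnnt2 was higher, at 148 in PB-Gbx2 and 100 in PB. The part of muscle cells in the value of Cox7a1 was not tested.

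**Figure D3:**
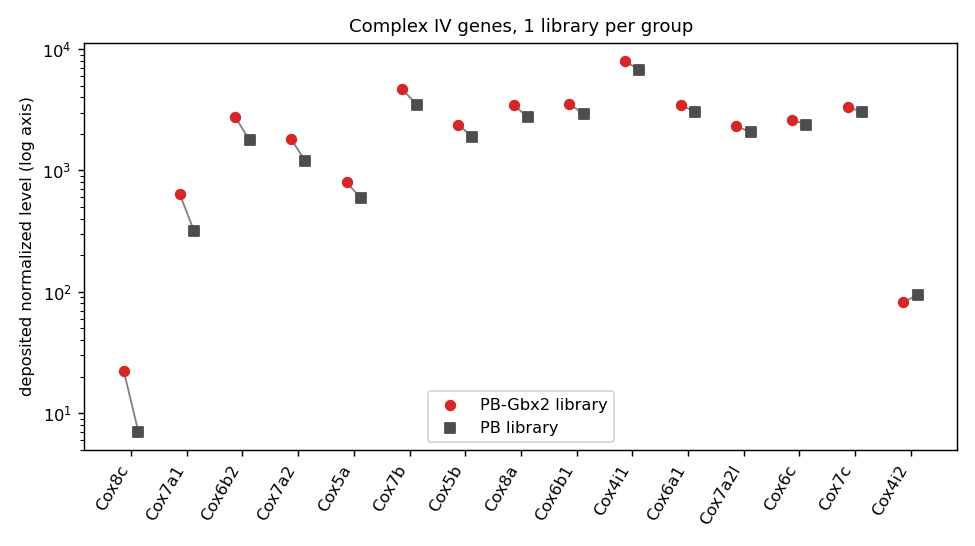
Deposited normalized level, on a log axis, of each complex IV gene in the PB-Gbx2 library (red circles) and the PB library (grey squares), ordered from the highest to the lowest ratio; each point is 1 library. The red circle is the higher of the pair for every gene but Cox4i2, and Cox8c lies far below the others at 22 in PB-Gbx2 and 7 in PB.

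Complex V showed no common direction. Its catalytic F1 part held Atp5b, at 45185 in PB-Gbx2 and 45185 in PB. This value is shared by 2 rows in each library. Since both libraries hold the same sorted values, an equal level stands for an equal rank. The complex V median of 0.00 is the value of Atp5b and of Atp5h, whose levels were equal too. Atp5a1, the partner of Atp5b in the catalytic ring, stood at 19898 in PB-Gbx2 and 21418 in PB. Among the rotor subunits, Atp5c1 was at 5706 in PB-Gbx2 and 5541 in PB, and Atp5e at 1022 in PB-Gbx2 and 950 in PB. Atp5d, also of the rotor, was at 3592 in PB-Gbx2 and 2972 in PB, 1.21-fold higher and the single gene of the complex past the threshold in that direction.

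The peripheral stalk holds the catalytic head in place. Its subunit Atp5f1 stood at 6994 in PB-Gbx2 and 7772 in PB (1.11-fold lower), Atp5h at 3726 in PB-Gbx2 and 3726 in PB, and Atp5j and Atp5o had log2 ratios of -0.01 and 0.07. The proton-carrying c subunit of the membrane ring is coded by 3 genes whose mature proteins are the same. Of these, Atp5g1 was at 2257 in PB-Gbx2 and 1884 in PB, a log2 ratio of 0.26 just under the threshold, while Atp5g2 and Atp5g3 had log2 ratios of 0.10 and -0.03. The other membrane subunits, Atp5l, Atp5j2 and Atp5k, ranged from 0.20 for Atp5l (2092 in PB-Gbx2 and 1824 in PB) to -0.15 for Atp5k (1986 in PB-Gbx2 and 2197 in PB) on the same scale.

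A pair of symbols matches the naming rule without coding for parts of the synthase. Atp5s stood at 120 in PB-Gbx2 and 148 in PB (1.23-fold lower). Atp5sl, now called Dmac2, acts in the assembly of complex I and stood at 1318 in PB-Gbx2 and 1385 in PB. Without them no complex V gene was lower by 1.2-fold.

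**Figure D4:**
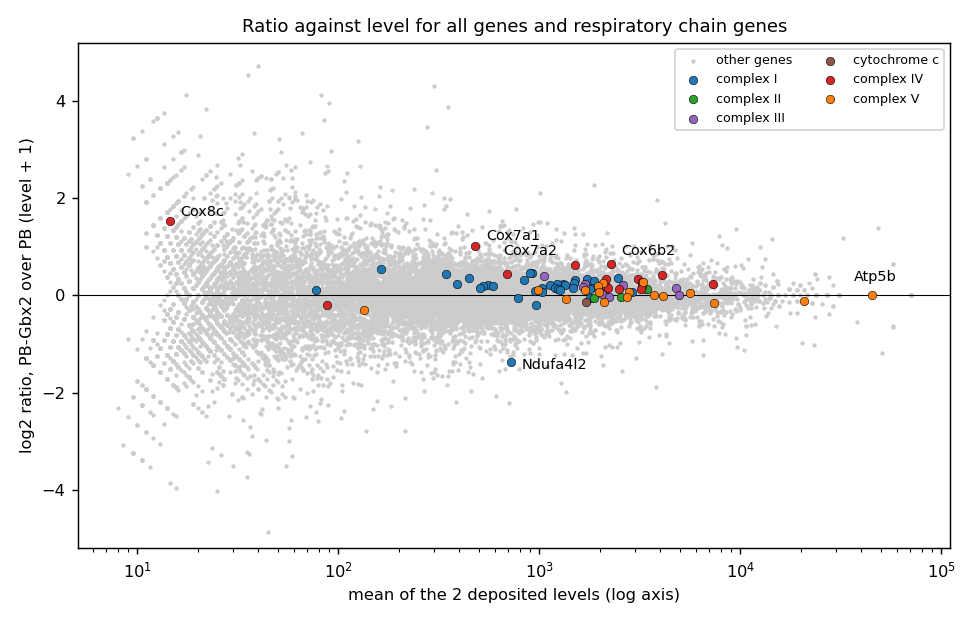
Log2 ratio of PB-Gbx2 over PB against the mean of both deposited levels (log axis) for all 14500 genes, with the 83 respiratory chain genes coloured by complex. The spread of grey points narrows as the level rises, and most coloured points lie in a thin band just above 0, with Cox7a1 above it and Ndufa4l2 below.

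Properties that the members share beyond their names were recorded beside these results. Their transcripts are short, with a median of 908 nucleotides against 2979 for all genes. The 165 other genes at a mean level of at least 1000 with transcripts under 1000 nucleotides had a median log2 ratio of 0.00, and 18 of them (10.9%) were higher by 1.2-fold. The 47 members with transcripts under 1000 nucleotides had a median of 0.20, and the 36 longer ones 0.12. Members of any level were taken here, unlike the 165 genes, so the sets differ in level. Exons of 22 members overlap those of another gene. One of them is Ndufa2, 1.27-fold higher, which overlaps Tmco6 at 278 in PB-Gbx2 and 376 in PB. Among other partners with a row, some moved the same way as the member and some, like Tmco6, the opposite way. Moving the same way were Kbtbd4 (110 in PB-Gbx2 and 64 in PB), which overlaps Ndufs3, and Tfpt (382 in PB-Gbx2 and 325 in PB), which overlaps Ndufa3. Braf (913 in PB-Gbx2 and 1313 in PB), which overlaps Ndufb2, moved the opposite way. So did Mrpl47 (812 in PB-Gbx2 and 878 in PB), which overlaps Ndufb5. The part of overlap in these ratios was not tested. Many small subunit genes also have processed pseudogenes in the mouse genome, and how reads shared with them were counted is not given in the sources used here.

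Genes that build the complexes were set beside the subunits. Of 48 assembly factors and related genes with a row, 14 were higher by 1.2-fold (29.2%, against 25.5% of all genes) and 5 lower (10.4%, against 25.9%), and the median log2 ratio was 0.14. The share of higher genes was thus near that of the whole table. Among 15 complex I assembly factors, 5 were higher (33.3%) and 1 lower (6.67%). Tmem186 stood at 774 in PB-Gbx2 and 556 in PB, and Tmem126b at 213 in PB-Gbx2 and 160 in PB. Tmem126a was at 332 in PB-Gbx2 and 250 in PB, and Ecsit, the lower one, at 494 in PB-Gbx2 and 636 in PB. Ndufab1, the acyl carrier protein that is also a complex I subunit but escapes the naming rule, stood at 640 in PB-Gbx2 and 512 in PB.

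Of 6 complex III factors, Uqcc1 (594 in PB-Gbx2 and 421 in PB) and Uqcc3 (336 in PB-Gbx2 and 238 in PB) were both 1.41-fold higher, and none was lower. The higher share of this list was 33.3%, against 25.5% of all genes. The factors of complex IV had 4 of 17 higher (23.5%), 2 lower (11.8%) and a median log2 ratio of 0.07, under the 0.33 of its subunits. Coa7, which is needed to assemble the enzyme, stood at 380 in PB-Gbx2 and 232 in PB (1.64-fold higher, percentile 94.1). Sco1, which delivers copper, was at 452 in PB-Gbx2 and 340 in PB. Taco1, a translational activator of the mitochondrially coded subunit I, was lower, at 260 in PB-Gbx2 and 338 in PB.

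Of 4 complex II factors, 1 was higher and 1 lower (25% each, against 25.5% and 25.9% of all genes). The lower one, Sdhaf4, stood at 114 in PB-Gbx2 and 165 in PB. In the complex V list, 2 of 6 genes were higher (33.3%, against 25.5% of all genes) and 1 lower (16.7%, against 25.9%). Usmg5, a small subunit of the synthase, was at 1078 in PB-Gbx2 and 834 in PB, and 2010107E04Rik at 1311 in PB-Gbx2 and 1068 in PB, while the assembly factor Atpaf2 was at 494 in PB-Gbx2 and 642 in PB.

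The enzymes that feed the chain did not share its direction. For pyruvate dehydrogenase, its kinases and phosphatases and the citric acid cycle, 11 of 24 genes lay above 0 and 13 below. Their median log2 ratio was -0.02. By 1.2-fold 1 was higher (4.17%, against 25.5% of all genes) and 3 lower (12.5%, against 25.9%). Pdhb, a subunit of pyruvate dehydrogenase, stood at 2392 in PB-Gbx2 and 3240 in PB (1.35-fold lower, percentile 4.70). The phosphatase Pdp1 was at 168 in PB-Gbx2 and 246 in PB, and pyruvate carboxylase, Pcx, at 1264 in PB-Gbx2 and 993 in PB. Genes of mitochondrial transcription and copy number had 6 above 0 and 6 below. By 1.2-fold, 2 of them were higher (16.7%, against 25.5% of all genes) and 3 lower (25%, against 25.9%). Tfam, which packs mitochondrial DNA and starts its transcription, was at 2028 in PB-Gbx2 and 2195 in PB. Top1mt, a topoisomerase, was at 328 in PB-Gbx2 and 458 in PB, and Slirp, which stabilizes mitochondrial mRNAs, at 344 in PB-Gbx2 and 248 in PB.

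Among nuclear regulators of respiratory genes, 4 of 13 were higher (30.8%, against 25.5% of all genes) and 2 lower (15.4%, against 25.9%), with a median log2 ratio of 0.19. The retinoid receptor Rxra stood at 807 in PB-Gbx2 and 366 in PB (2.20-fold higher, percentile 99.7). The estrogen-related receptor Esrra was at 310 in PB-Gbx2 and 215 in PB, and its relative Esrrb, a pluripotency factor, at 9456 in PB-Gbx2 and 7508 in PB. Nrf1, a factor known to bind many respiratory promoters, was close to even at 771 in PB-Gbx2 and 711 in PB. Ppargc1b, the coactivator PGC-1 beta, was low in both libraries, at 64 in PB-Gbx2 and 98 in PB.

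**Figure D5:**
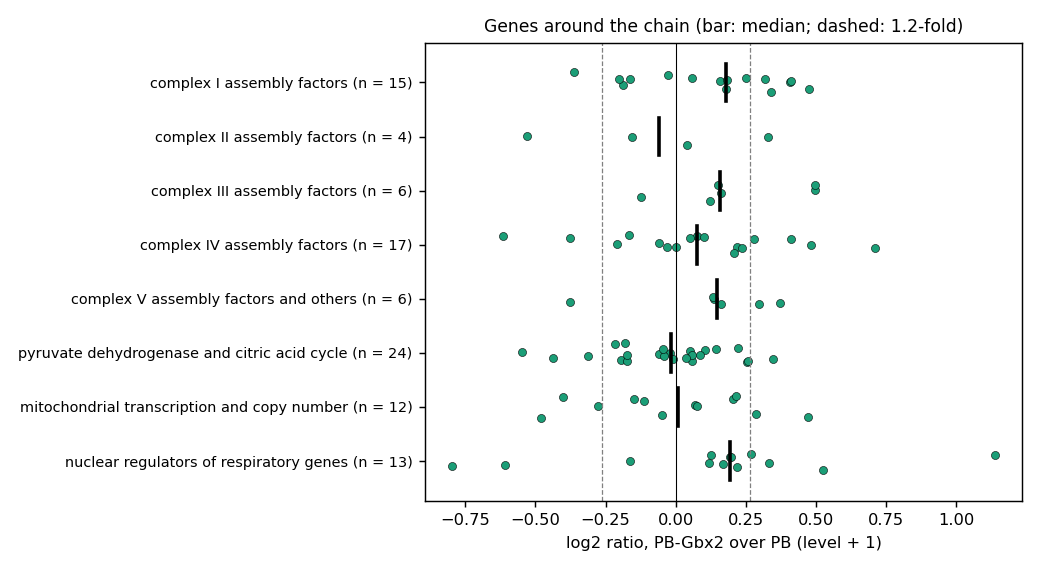
Log2 ratio of PB-Gbx2 over PB for genes that assemble, feed, transcribe or regulate the chain, 1 point per gene and 1 row per list, with medians as thick bars and dashed lines at 1.2-fold. The medians of the assembly lists of complexes I to V are, in order, 0.18, -0.06, 0.16, 0.07 and 0.15. The complex V list also holds an inhibitor and further subunits. The medians of the citric acid cycle and mitochondrial transcription lists are -0.02 and 0.01.

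RefSeq promoter windows (GRCm38.p6, 250 bases before to 50 after the start) were found for 68 of the 83 members and searched on both strands for short motifs known from respiratory promoters. A gene counted when any of its listed starts held the letters. The NRF1 core CGCATGCGC was in 9 members (13.2%), against 4.09% of the 10750 genes of the table with a window. The YY1 motif AAGATGGC was in 11 (16.2% against 5.12%) and the estrogen-related receptor motif AAGGTCA in 8 (11.8% against 4.02%). The ETS motif ACTTCCGG was in 5 (7.35% against 8.80%), and the core of the hypoxia response element, ACGTG, in 19 (27.9% against 29.2%). The NRF1 core overlaps its own reverse complement, so 1 place can match on both strands, and none of these motifs contains another. Matches are descriptions of letters and not binding sites.

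Motif matches and ratios were compared as a description. The members with the NRF1 core had a median log2 ratio of 0.10 and those without it 0.19. For the YY1 motif the medians were 0.12 with and 0.16 without, for the estrogen-related receptor motif 0.11 with and 0.16 without, and for the hypoxia core 0.13 with and 0.16 without. The ETS motif went the other way, at 0.21 with and 0.16 without. These are small groups of genes, and the gaps were not tested. The 11 complex IV genes with a window held the NRF1 core in 1, the ETS motif in 1, the hypoxia core in 2 (Cox5a and Cox7a1) and neither the YY1 nor the estrogen-related receptor motif. Of the 11 members with the YY1 motif, 7 belong to complex I and 4 to complex V. The 100 bases before the start are shown for 3 members with the NRF1 core, from complexes I and V and cytochrome c, and for the 3 complex IV genes with the highest ratios at a level of at least 100, so that promoters with and without it can be read. Capitals mark a motif match, which is the NRF1 core throughout, and none of the searched motifs lies in the stretches of the complex IV genes. The stretches are chr17:56717662-56717761, plus strand, for Ndufa11, chr5:108434400-108434499, minus strand, for Atp5k, and chr6:50566570-50566669, minus strand, for Cycs. For complex IV they are chr7:30184071-30184170, plus strand, for Cox7a1, chr7:4753095-4753194, minus strand, for Cox6b2, and chr9:79759854-79759953, minus strand, for Cox7a2.
Ndufa11: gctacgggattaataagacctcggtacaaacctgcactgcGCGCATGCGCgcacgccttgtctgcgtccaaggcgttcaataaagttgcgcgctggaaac
Atp5k: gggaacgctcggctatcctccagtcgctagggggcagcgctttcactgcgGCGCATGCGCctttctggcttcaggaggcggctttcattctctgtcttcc
Cycs: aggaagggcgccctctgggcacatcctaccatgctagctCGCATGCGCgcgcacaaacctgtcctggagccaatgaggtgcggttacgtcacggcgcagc
Cox7a1: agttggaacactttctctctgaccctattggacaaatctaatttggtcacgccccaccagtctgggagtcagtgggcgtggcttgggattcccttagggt
Cox6b2: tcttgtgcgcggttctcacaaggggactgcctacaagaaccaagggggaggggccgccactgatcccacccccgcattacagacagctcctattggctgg
Cox7a2: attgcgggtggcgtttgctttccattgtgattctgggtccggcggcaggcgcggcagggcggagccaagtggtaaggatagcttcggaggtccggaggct

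Beside these stretches, Ndufa11, an accessory subunit of complex I, stood at 1898 in PB-Gbx2 and 1708 in PB (1.11-fold higher). Of the 9 members with the NRF1 core, 6 had a ratio above 1, Ndufa11 among them, and Atp5k, Cycs and Ndufa8 had a ratio below 1. The complex IV stretches were picked for their ratios, so the examples bear on no relation between motif and ratio.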

How the data were processed

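RNA from 2 libraries was compared, 1 per vector. Per the submitters' processing notes, reads were handled with STAR and mouse build mm9. The sources used here do not name the annotation used for counting. The labels' protocols name a TruSeq RNA kit, a kind that does not mark strand. The deposited level of a gene is a score that the authors normalized and rounded to whole numbers. Its sorted values are equal in all 14501 rows of both libraries, so it was not treated as a read count. The deposited ratio and log2 ratio of the authors run as PB over PB-Gbx2 and were not used. Their deposited p-values are quoted as theirs.

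Rows with the same symbol were summed, leaving 14500 symbols. Ratios were computed as PB-Gbx2 over PB on log2(level + 1), which understates changes at low levels. Printed folds are ratios of levels. All genes were ranked by mean level and cut into 20 equal groups, and a gene's percentile is the place of its ratio within its group. With 1 library per group there was no test and no interval. Transcript lengths come from the longest coding GENCODE M21 transcript, found for 14432 symbols and all 83 members.

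The lists of related genes were written by function. The members, lists and thresholds were chosen with earlier results of these data known, and motifs, length and overlap checks after the values were seen. In each complex the members with the highest and lowest ratios were described, and from each related list up to 3 genes with the largest ratios at a level of at least 100, with a few more named after their values were seen. The values of 1 complex I gene are not reported here, although it is in the counts and medians. The counts were checked on simulated data. Other settings tried were pseudocounts of 0.1 and 5, a least mean level of 100, rescaling by the median or a trimmed mean (30 percent cut from each side), the highest row per symbol, subsets of members and other folds. Python 3.11.15, numpy 2.4.6 and pandas 2.3.3 were used.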

Additional observations from a re-analysis of the deposited data

How the results depend on the processing

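Over all alternatives run, the medians of every complex moved by less than 0.1 on the log2 scale, and none of 661 single-gene results moved by 1.5-fold or turned direction past 1.2-fold. Both rescalings left the ratios as they were, since the deposited values share 1 distribution. Taking the highest row per symbol could also alter little, since the 14501 rows hold 14500 symbols. These settings are among the alternatives counted, although they could hardly move a result. With general structural subunits only, no member was lower (0 in all, in complex I and in complex V). At 1.1-fold, 46 members were higher and 6 lower (complex I 25 and 2, complex III 6 higher, complex IV 1 lower, complex V 3 and 3). At 1.5-fold, 4 were higher, all of complex IV, and 1 lower, with 0 higher in complexes I and III and 0 either way in complex V. At 2-fold, 2 were higher, both of complex IV, and 1 lower, with the same zeros. With Ndufa4 and Ndufa4l2 counted in complex IV, chosen after seeing the data like the removal of length and GC trends, the lower count was 0 in complex I and 1 in complex IV. No paired analysis was possible because only 1 library stands for each vector, which also means that neither could be dropped in turn. The depth behind the values is not known.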
